A study of Mus musculus with 12 samples.

Results

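The epithelial sodium channel (ENaC) and the aldosterone pathway that governs it were followed through 8 genes. These were the channel subunits Scnn1a, Scnn1b and Scnn1g, the mineralocorticoid receptor Nr3c2, the enzyme Hsd11b2, the kinase Sgk1, the ubiquitin ligase Nedd4l and the corticosteroid-induced gene Tsc22d3. The genes were chosen by their symbols, with earlier results of these data known. All 8 were found among the 23420 genes of the count table, and all 8 passed the filter on low counts that left 11664 genes to be tested.

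ENaC lies in the apical membrane of principal cells in the connecting tubule and collecting duct, where it lets sodium enter from the tubular fluid and so sets the last adjustable step of sodium reabsorption. Aldosterone binds the mineralocorticoid receptor, which raises the transcription of Sgk1, and the SGK1 kinase phosphorylates the Nedd4l ligase, which otherwise tags the channel for removal from the membrane. Corticosterone binds the same receptor, and the Hsd11b2 enzyme inactivates it in these cells. Tsc22d3 encodes GILZ, a leucine zipper protein whose transcription responds to corticosteroid receptors in many tissues.

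The kidneys came from male C57BL/6J mice, 8 to 15 weeks old by the study's methods, with 4 mice in each of 3 groups by the design of the series. The control kidneys were obtained by nephrectomy, although the labels give 20 min of clamping and 24 h for them too. The 8 ischemic kidneys were taken 24 h after a 20 min ischemia made with the RIRI clamp, a thread with silicone tubing that is closed from outside the body, in mice that were either conscious or anaesthetised with ketamine and xylazine. For the 4 kidneys called set A here, the title says anaesthetised and the group field says conscious, and for the 4 kidneys called set B the title says conscious and the group field says anaesthetised. No direction was therefore assigned to anaesthesia. In the described procedure the clamp was closed and opened under brief isoflurane sedation, also in mice called conscious. The methods describe placing the clamp with or without removal of the right kidney and do not say which was done for the sequenced kidneys.

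Libraries held between 15367342 and 44793350 counts, and replicate 4 of set B was the shallowest. A count of 3, taken as the detection floor, lay at 0.067 to 0.195 CPM, which is the count scaled to the total of its library, and covers counting error only. Levels are given as CPM scaled by TMM factors, which lay between 0.968 and 1.03. In whole-kidney RNA, fewer cells of a type and less RNA per cell cannot be told apart. Of 8 principal cell markers, 7 passed the filter and none was called in any comparison by edgeR at an adjusted p below 0.05. Their summed level was 220 to 289 CPM in the controls, 212 to 294 CPM for set A and 165 to 479 CPM for set B. The marker that did not pass, Fxyd4, a regulator of the sodium pump, had 3 counts or fewer in every control and set A kidney. Proximal tubule markers fell in both sets, 7 of 7, and their sums were 6910 to 7770 CPM in the controls, 735 to 1390 CPM for set A and 455 to 1450 CPM for set B. The summed markers of the distal convoluted and connecting tubule, where ENaC is also found, were 1790 to 2510 CPM in control kidneys, 1040 to 1700 CPM for set A and 949 to 1620 CPM for set B. Of these 8 markers, edgeR called 3 lower in set B and 1 higher, the calcium channel Trpv5, which rose from a control mean of 8.87 ± 5.04 CPM (SD, n = 4) to 20.5 ± 8.78 CPM (log2 fold change 1.21, adjusted p = 0.0337). With both sets pooled against control, 3 were called lower and none higher, and among the 5 not called was Slc12a3, the thiazide-sensitive cotransporter, at 965 ± 149 CPM (SD, n = 4) in the controls, 827 ± 116 CPM for set A and 877 ± 145 CPM for set B. The part of these cell types in the results was not tested.

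Replicate 4 of set B stood apart for these genes. It held the highest level of all 12 kidneys for 5 of the 8 genes, Scnn1a, Scnn1b, Scnn1g, Nr3c2 and Sgk1, and for 6 of the 7 principal cell markers tested. Over all genes tested, 14.4% were highest in this kidney. Replicate 2 of set A held the lowest level of Scnn1a, Scnn1b and Nr3c2, against 7.2% of all genes. The values of these 5 genes in set B against control are given with and without replicate 4 of set B.

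Corticosteroid receptors bind DNA through the core motif AGAACA, which reads TGTTCT on the other strand, and a full site joins both of these as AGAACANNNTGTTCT. The bases before the transcription start were searched for these letters on both strands, since the 2 genes described most fully here, Sgk1 and Tsc22d3, are both known to respond to corticosteroids. RefSeq windows of 250 bases before the start, on GRCm38.p6, were read for 5 of the 8 genes, 12 windows in all, of which 4 held a core motif (3 of Sgk1 and 1 of Tsc22d3) and 1 held a full site. Among all 32851 windows of this length, 16.08% held a core motif and 0.00913% held a full site. The counts are per gene and do not show which start was used. Shown here are 3 windows, each printed from 5′ to 3′ on the strand of the gene with core motifs in capitals. The first, before a start of Sgk1 (chr10:21993640-21993889, + strand), is the window with the full site, and it holds 3 core motifs of which 2 form that site. The second, before a start of Tsc22d3 (chrX:140600523-140600772, - strand), holds 1 core motif. The GENCODE M21 annotation has no start within 5 bases of this RefSeq start and begins the gene at 140600659, inside the window. The third, before the start of Scnn1g (chr7:121734229-121734478, + strand), holds none and is shown for contrast with the channel.
Sgk1: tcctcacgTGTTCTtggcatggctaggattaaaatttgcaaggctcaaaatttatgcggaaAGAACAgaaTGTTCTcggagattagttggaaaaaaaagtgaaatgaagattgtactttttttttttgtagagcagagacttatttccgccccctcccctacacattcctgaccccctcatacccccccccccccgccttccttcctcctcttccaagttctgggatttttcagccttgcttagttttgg
Tsc22d3: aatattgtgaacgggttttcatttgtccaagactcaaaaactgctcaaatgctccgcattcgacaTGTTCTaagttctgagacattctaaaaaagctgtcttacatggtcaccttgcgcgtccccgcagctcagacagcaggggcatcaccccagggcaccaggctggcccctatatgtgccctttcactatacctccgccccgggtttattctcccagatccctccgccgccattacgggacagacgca
Scnn1g: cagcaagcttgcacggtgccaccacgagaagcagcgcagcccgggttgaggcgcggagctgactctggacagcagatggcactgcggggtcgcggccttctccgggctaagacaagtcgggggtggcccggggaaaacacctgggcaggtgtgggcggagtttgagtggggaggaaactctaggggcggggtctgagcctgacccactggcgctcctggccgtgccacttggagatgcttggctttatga

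Full sites were found in 3 of the 32851 windows, before starts of Sgk1, Acnat2 and Gm35041. A match of letters is a description of the window and does not show binding.

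Per kilobase of exon in the mm10 annotation (GENCODE M21), the controls ranked the genes from Nedd4l, with a mean of 18.8 CPM per kb, through Scnn1b (12.8), Tsc22d3 (9.82), Hsd11b2 (8.99), Sgk1 (8.08), Scnn1a (5.33) and Scnn1g (2.87) to Nr3c2 (0.941). Nedd4l lay above Scnn1b, Scnn1b above Tsc22d3, and Scnn1g above Nr3c2 in 4 of 4 control kidneys. The other neighbours changed places between control kidneys, with Tsc22d3 above Hsd11b2 in 3 of 4, Hsd11b2 above Sgk1 in 3 of 4, Sgk1 above Scnn1a in 2 of 4 and Scnn1a above Scnn1g in 3 of 4. In set B, Sgk1 lay above Hsd11b2 in every kidney, with means of 13.7 and 4.27 CPM per kb. Within the channel, the subunit with the highest level per kb in the controls was the beta subunit Scnn1b. The length was the union of the exons of all annotated transcripts (34 for Nedd4l, 1 for Scnn1g), and the order depends on this choice.

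**Figure D1:**
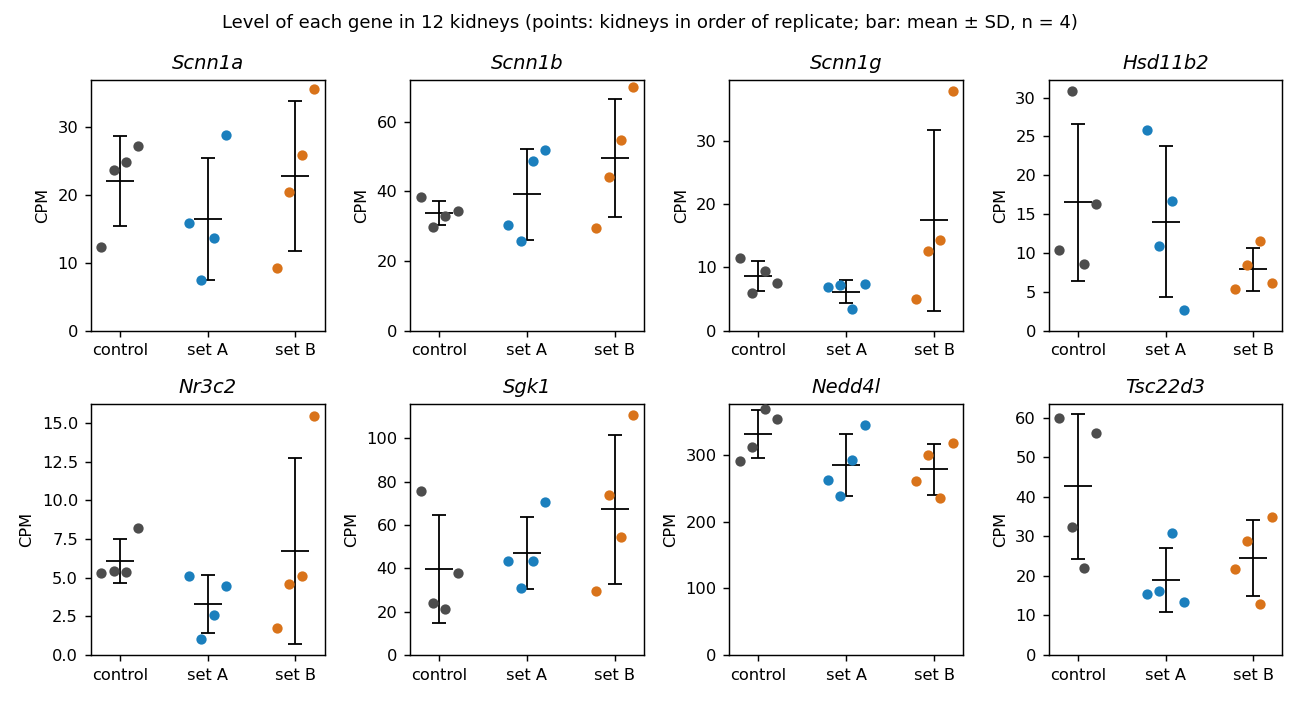
Level of each of the 8 genes in CPM (vertical axes, each starting at 0) in the 4 control, 4 set A and 4 set B kidneys. Each point is a kidney, in order of replicate, and bars show the mean ± SD (n = 4). The Tsc22d3 points of set A lie at or below 30.9 CPM while 3 of 4 controls lie above that, and replicate 4 of set B is the topmost point for Scnn1a, Scnn1b, Scnn1g, Nr3c2 and Sgk1.

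The question of the design was which transcripts differ between ischemic and control kidneys and between the sets. Tsc22d3 was the single gene of the 8 that was called. In set A against control, edgeR's quasi-likelihood test called 1 of the 8 genes at an adjusted p below 0.05 (Benjamini-Hochberg over all genes tested), against 22.3% of all genes. In set B against control it called none of the 8, against 22.8% of all genes, with 1 gene at an unadjusted p below 0.05 and none called by DESeq2. With both sets against control it called 1 of the 8, or 12.5%, against 26.4% of all genes. The comparisons with control share the same 4 control kidneys. The median log2 fold change of the 8 genes was -0.33 in set A, 0.09 in set B and -0.21 in both sets, beside -0.02, -0.02 and -0.03 for all genes tested.

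Between the sets, none of the 8 genes was called by edgeR or by DESeq2, against 0.00857% of all genes, which is 1 gene in edgeR, the proximal tubule marker Slc5a12, named after its values were seen (13.6 ± 3.36 CPM for set A and 49.0 ± 23.4 CPM for set B, SD, n = 4, adjusted p = 0.0328). Of the 8, Scnn1g had an unadjusted p below 0.05 in edgeR. Counted by levels alone, 1 of the 8 genes did not overlap between set A and control, against 28.2% of all genes, and none did so in set B against control (26.7% of all genes), in set B against set A (2.61%) or in both sets against control (20.1%).

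**Figure D2:**
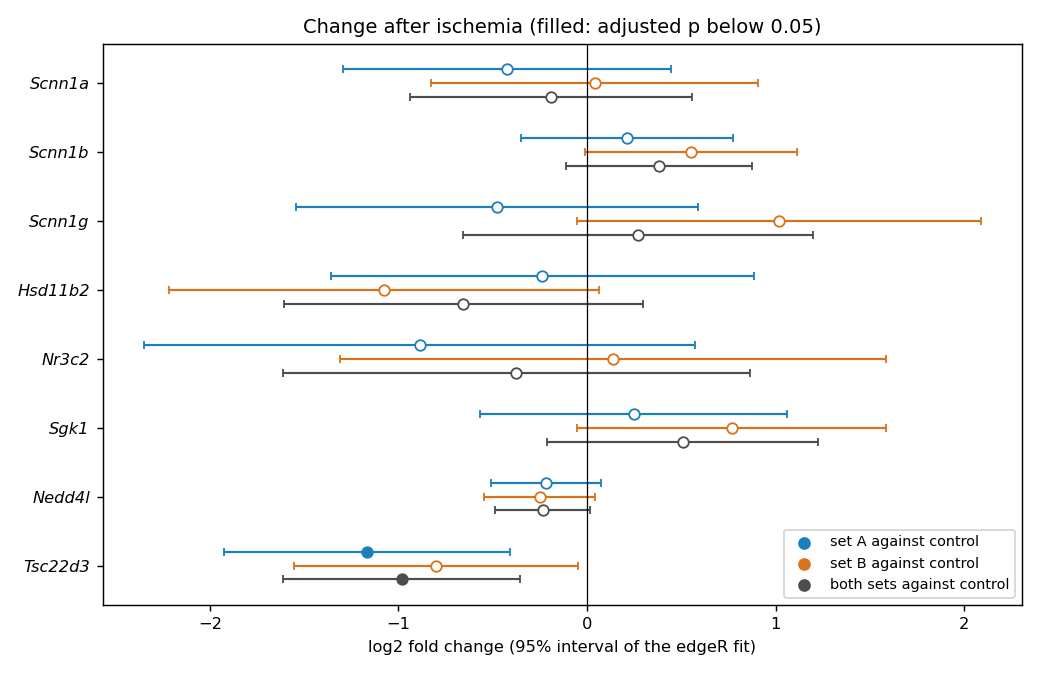
Log2 fold change of each gene against control (horizontal axis) in set A, in set B and in both sets, with the 95% interval of the edgeR fit. Filled points have an adjusted p below 0.05. The 2 filled points belong to Tsc22d3, at -1.17 in set A and -0.98 in both sets, and the intervals of all other genes cross 0.

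Tsc22d3 (chrX:140539528-140600659, - strand) was at 59.8, 32.4, 22.1 and 56.2 CPM in control replicates 1 to 4. It was at 15.3, 16.1, 30.9 and 13.4 CPM for set A and at 21.6, 28.7, 12.8 and 34.9 CPM for set B. The controls were spread widely, with replicates 1 and 4 above every ischemic kidney and replicates 2 and 3 within the ischemic range, so that the groups overlapped.

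The mean of Tsc22d3 was 42.6 ± 18.3 CPM (SD, n = 4) in the controls, 18.9 ± 8.08 CPM for set A and 24.5 ± 9.51 CPM for set B. In edgeR the log2 fold change was -1.17 in set A (SE 0.362, adjusted p = 0.0243), -0.80 in set B (SE 0.36, adjusted p = 0.126) and -0.98 in both sets (SE 0.301, adjusted p = 0.0186). The sets themselves differed by 0.37 on the log2 scale (edgeR, 95% interval -0.39 to 1.12, unadjusted p = 0.321). With any 1 kidney left out, that difference lay between 0.15 and 0.69. Two-sided exact permutation tests of the levels gave p = 0.0571 for set A and p = 0.171 for set B. The same test gave p = 0.0364 for both sets, with an adjusted p of 0.533 over the 32 exact tests of the 8 genes. With these group sizes, a test that alone reaches its smallest p cannot pass the threshold after that adjustment. The adjusted value therefore could not decide whether the groups differ.

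The call of Tsc22d3 changed when single kidneys were left out. In set A it was lost without control replicate 1, where the log2 fold change was -0.95 (edgeR adjusted p = 0.1), without control replicate 4 (-1.0), and without set A replicates 1 (-1.05), 2 (-1.10) or 4 (-1.05). In both sets it was lost without control replicate 1 (-0.78, edgeR adjusted p = 0.109) or control replicate 4 (-0.83). In set B it was gained without control replicate 3 (-1.03, edgeR adjusted p = 0.0494). The direction was lower in each of these fits.

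Sgk1 (chr10:21882184-21999903, + strand), the kinase that restrains Nedd4l, was at 75.6, 24.1, 21 and 37.8 CPM in the controls. It was at 43.3, 31.0, 43.3 and 70.4 CPM for set A and at 29.7, 73.8, 54.5 and 111 CPM for set B. Control replicate 1 was the second highest of all 12 kidneys and lay above every set A kidney, while the other 3 controls were among the lower kidneys.

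The mean of Sgk1 was 39.6 ± 25.1 CPM (SD, n = 4) in the controls, 47.0 ± 16.6 CPM for set A and 67.4 ± 34.5 CPM for set B, and it was not called in any comparison. The log2 fold change in edgeR was 0.25 in set A (95% interval -0.57 to 1.06), 0.77 in set B (-0.05 to 1.58, adjusted p = 0.186) and 0.51 in both sets (-0.21 to 1.23, adjusted p = 0.328). Without control replicate 1 the value passed the threshold in edgeR, at 1.27 in set B (adjusted p = 0.0188) and 1.02 in both sets (adjusted p = 0.0324). Without replicate 4 of set B it was 0.41 in set B and 0.33 in both sets (edgeR adjusted p = 0.523).

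Within a kidney, the distance between these 2 corticosteroid-responsive genes does not depend on the scaling of the library, apart from the small prior count added to each value. Tsc22d3 minus Sgk1, in log2 CPM, was -0.34, 0.43, 0.07 and 0.57 in the 4 controls. The same difference was -1.5, -0.94, -0.49 and -2.39 for set A and -0.46, -1.36, -2.08 and -1.67 for set B. Every ischemic kidney lay below every control kidney.

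The mean difference between Tsc22d3 and Sgk1 was 0.18 ± 0.41 (SD, n = 4) in the controls, -1.33 ± 0.82 for set A and -1.40 ± 0.69 for set B, a shift of -1.54 on the log2 scale for both sets against control. The two-sided exact permutation test gave p = 0.00404, the smallest that 8 kidneys against 4 allow. After adjustment over the 14 tests of 7 such differences, the permutation p was 0.0566, above the threshold of 0.05. That is the lowest adjusted p that 1 difference alone can reach among these tests. Its failure to pass was therefore set by the number of kidneys and tests. Control replicate 1, which was high in both genes, was among the controls that kept this order. Leaving out any 1 kidney gave shifts between -1.72 and -1.40. Over all alternatives the adjusted permutation p lay between 0.0566 and 0.226, and with fewer kidneys the smallest p that the test allows is larger. The sets differed by -0.07 (exact permutation p = 0.914).

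**Figure D3:**
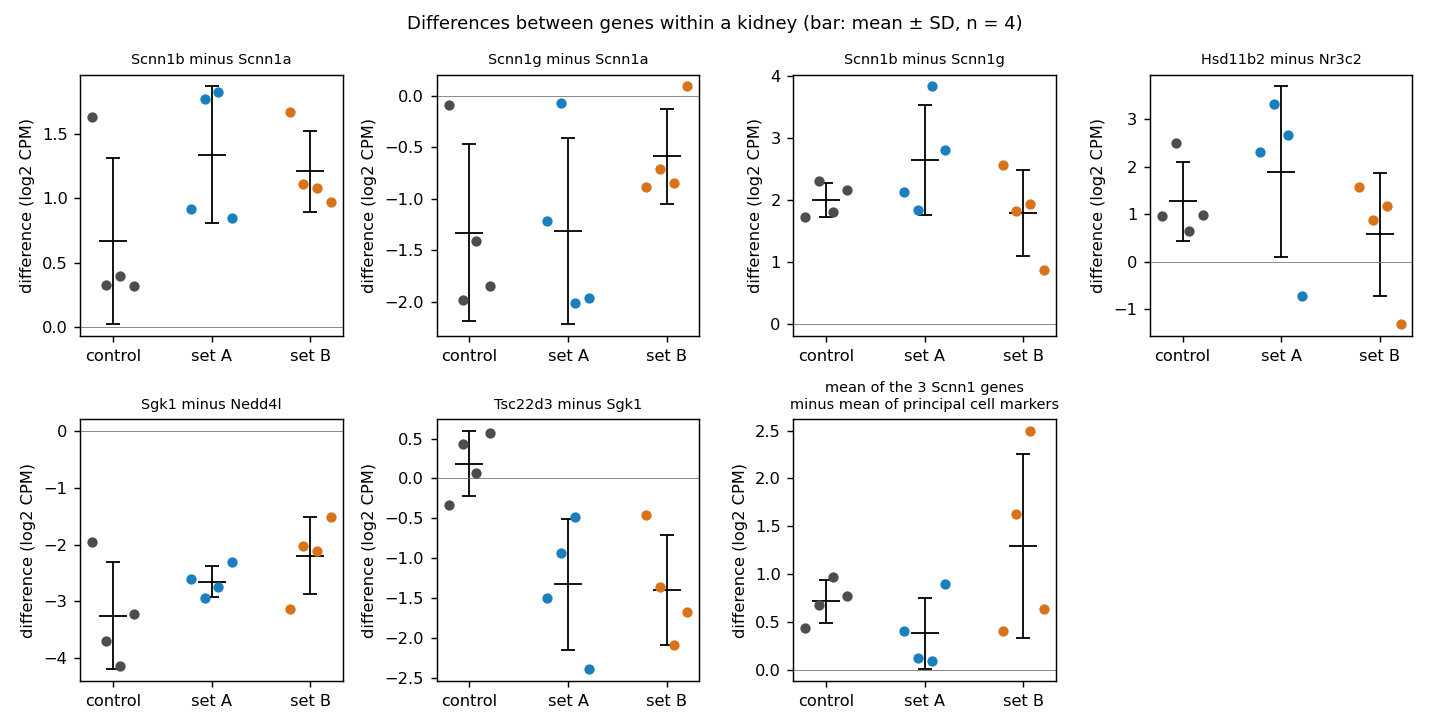
Difference between genes within a kidney, in log2 CPM (vertical axes), for 6 pairs of genes and for the mean of the 3 Scnn1 genes minus the mean of the principal cell markers. Points are kidneys and bars show the mean ± SD (n = 4). In the panel of Tsc22d3 minus Sgk1 the controls lie between -0.34 and 0.57 and the 8 ischemic kidneys between -2.39 and -0.46, while the groups overlap in the other panels.

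Nedd4l (chr18:64887705-65217828, + strand) was the gene with the least spread of the 8 on the log2 scale over all 12 kidneys. It was at 292, 312, 370 and 354 CPM in the controls, at 263, 239, 293 and 346 CPM for set A and at 261, 300, 235 and 319 CPM for set B. The lower ischemic kidneys lay below all controls and the higher ones within their range.

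The mean of Nedd4l was 332 ± 35.9 CPM (SD, n = 4) in the controls, 285 ± 46.0 CPM for set A and 279 ± 37.9 CPM for set B. It was not called, with an edgeR log2 fold change of -0.23 in both sets (95% interval -0.49 to 0.02, adjusted p = 0.17). Antisense genes overlap Nedd4l, and their reads cannot be told apart from its own if strand was not used in the counting, which is not stated. Sgk1 minus Nedd4l, the kinase against its substrate, was -3.25 ± 0.94 log2 CPM (SD, n = 4) in the controls, -2.65 ± 0.27 for set A and -2.19 ± 0.68 for set B, a shift of 0.83 that did not pass the two-sided exact permutation test (p = 0.0848, adjusted p = 0.396). This shift was 0.53 without control replicate 3 and 1.26 without control replicate 1 (exact permutation test, adjusted p = 0.0566).

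None of the 3 channel subunits was called, and in set A their fitted values lay on both sides of 0. Scnn1a (chr6:125320659-125344943, + strand), the alpha subunit, was at 12.3, 23.7, 24.9 and 27.3 CPM in the controls, at 15.9, 7.49, 13.7 and 28.8 CPM for set A and at 9.16, 20.4, 25.9 and 35.6 CPM for set B. The 3 groups covered much the same range, with control replicate 1, set A replicate 2 and set B replicate 1 as the lowest of their groups. The edgeR log2 fold change of Scnn1a was -0.42 in set A (95% interval -1.29 to 0.44), 0.04 in set B (-0.83 to 0.91) and -0.19 in both sets (-0.94 to 0.55, adjusted p = 0.785). The value in set B was -0.26 without its replicate 4 (edgeR adjusted p = 0.779). Without set A replicate 4 the value was -0.85 in set A and -0.42 in both sets, and without set A replicate 2 it was -0.19 and -0.0731.

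Scnn1b (chr7:121865038-121918514, + strand), the beta subunit, was at 38.3, 29.7, 32.8 and 34.2 CPM in the controls. It was at 30.2, 25.7, 48.6 and 51.9 CPM for set A and at 29.4, 44.2, 54.7 and 69.8 CPM for set B. The controls lay close together and the ischemic kidneys fell on both sides of them, 5 above every control and 2 below.

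The mean of Scnn1b was 33.7 ± 3.56 CPM (SD, n = 4) in the controls, 39.1 ± 13.1 CPM for set A and 49.5 ± 17.1 CPM for set B. The edgeR log2 fold change was 0.21 in set A (95% interval -0.35 to 0.77), 0.55 in set B (-0.01 to 1.12, adjusted p = 0.161) and 0.38 in both sets (-0.11 to 0.88, adjusted p = 0.269). Leaving out any 1 kidney gave values from 0.0294 (without set A replicate 4) to 0.37 in set A and from 0.34 (without set B replicate 4, edgeR adjusted p = 0.447) to 0.72 in set B. Scnn1b overlaps Cog7 on the other strand, so reads of the 2 genes cannot be told apart if strand was not used.

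Scnn1g (chr7:121734479-121768475, + strand), the gamma subunit, lies 96562 bases before Scnn1b on the same strand with 1 annotated gene between them. It was at 11.5, 5.95, 9.34 and 7.55 CPM in the controls, at 6.83, 7.15, 3.35 and 7.35 CPM for set A and at 4.92, 12.5, 14.3 and 37.9 CPM for set B. Set B was the more spread group, with replicate 1 below every control, replicates 2 to 4 above every control and replicate 4 far above the rest.

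Of the 8 genes, Scnn1g had the largest fold change between the sets in edgeR, with levels of 6.17 ± 1.89 CPM (SD, n = 4) for set A and 17.4 ± 14.3 CPM for set B. In edgeR the difference of set B from set A was 1.5 on the log2 scale (SE 0.518, 95% interval 0.41 to 2.58), with an unadjusted p of 0.00941 and an adjusted p of 0.93, and an exact permutation test gave p = 0.114. Without replicate 4 of set B it was 0.78 (edgeR adjusted p = 0.958). Against control, the log2 fold change was -0.48 in set A (95% interval -1.54 to 0.59) and 1.02 in set B (-0.05 to 2.09, edgeR adjusted p = 0.179), and the latter was 0.30 without replicate 4 of set B. Leaving out any 1 kidney gave values from -0.62 to -0.27 in set A.

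The balance between the subunits was compared within each kidney. Scnn1b minus Scnn1a was 0.67 ± 0.64 log2 CPM (SD, n = 4) in the controls, 1.34 ± 0.53 for set A and 1.21 ± 0.32 for set B, a shift of 0.61 for both sets (exact permutation p = 0.0808, adjusted p = 0.396). Control replicate 1 was at 1.63 and the other 3 controls lay between 0.32 and 0.40, below every ischemic kidney. Scnn1g minus Scnn1a shifted by 0.38 (exact permutation p = 0.444), with 0.17 without control replicate 2, 0.79 without control replicate 1 and 0.76 by group medians, and Scnn1b minus Scnn1g by 0.22 (exact permutation p = 0.646).

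Against the 7 principal cell markers that passed the filter, the mean of the 3 Scnn1 genes was 0.72 ± 0.22 log2 CPM higher (SD, n = 4) in the controls, 0.38 ± 0.37 higher for set A and 1.29 ± 0.96 higher for set B. The shift of both sets from control was 0.12 (exact permutation p = 0.893), and set B differed from set A by 0.91 (exact permutation p = 0.143, adjusted p = 0.467), or by 0.51 without replicate 3 of set B and by 1.21 without its replicate 1. In replicate 4 of set B, where the Scnn1 genes were highest, this difference was 0.63, within the range of the controls. It was largest in replicates 2 (1.63) and 3 (2.49) of set B, where the marker Aqp4, a basolateral water channel, had 0 counts. Elf5, a transcription factor among the same markers, also had 0 counts in replicate 3 of set B, as in control replicates 2 and 4 and set A replicates 1 and 2, so the marker mean rests in part on genes near the floor.

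**Figure D4:**
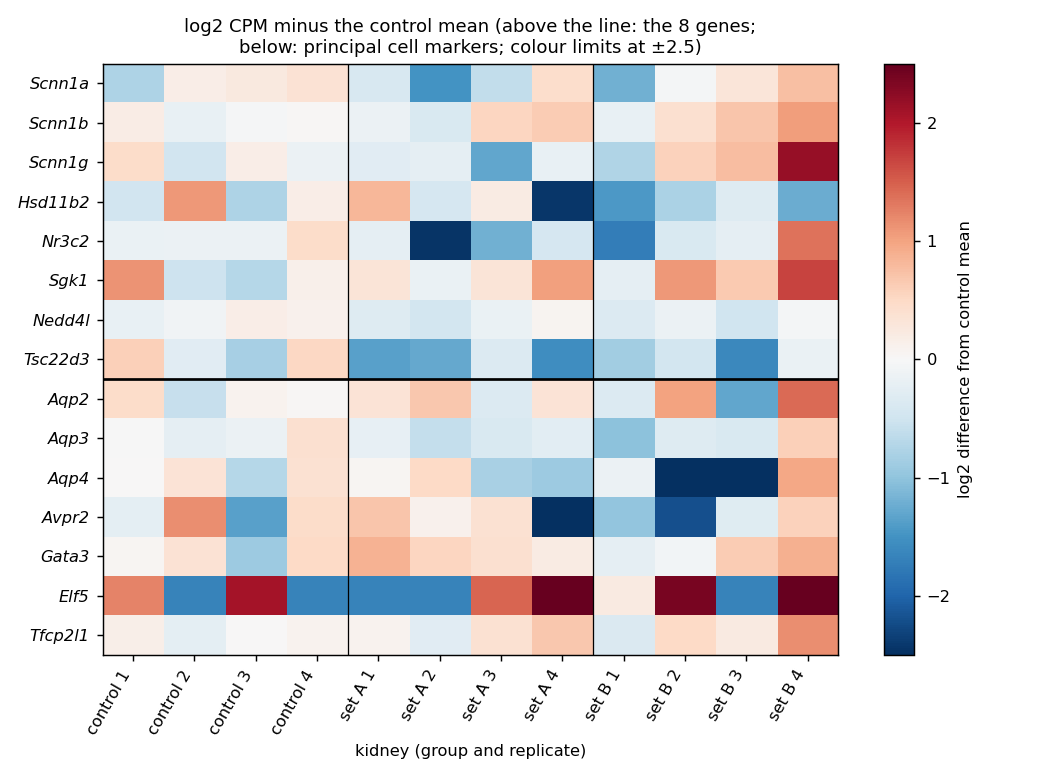
Log2 CPM of each kidney minus the control mean, for the 8 genes (above the line) and the 7 principal cell markers tested (below), with kidneys in columns, red for higher and blue for lower and colours limited at 2.5 in either direction. The column of replicate 4 of set B is red for 5 of the 8 genes and for all 7 markers, and the row of Tsc22d3 is blue in all 8 ischemic kidneys.

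Nr3c2 (chr8:76899442-77245012, + strand), the mineralocorticoid receptor, was at 5.32, 5.41, 5.4 and 8.23 CPM in the controls. It was at 5.14, 1.03, 2.56 and 4.46 CPM for set A and at 1.75, 4.56, 5.08 and 15.5 CPM for set B. Every set A kidney lay below every control, by a narrow margin for replicate 1, and set B held both a kidney far below and the kidney far above the controls.

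The mean of Nr3c2 was 6.09 ± 1.43 CPM (SD, n = 4) in the controls, 3.30 ± 1.87 CPM for set A and 6.72 ± 6.03 CPM for set B. For set A the two-sided exact permutation p was 0.0286, the smallest that 4 kidneys against 4 allow. The adjusted p of this permutation test was 0.533 over the 32 exact tests. A gene that alone reaches this smallest p cannot pass the threshold after adjustment over 32 tests. The adjusted value therefore could not decide whether set A and control differ. The edgeR test did not call Nr3c2, with a log2 fold change of -0.89 (95% interval -2.35 to 0.58, adjusted p = 0.457). In set B the value was 0.14 (95% interval -1.31 to 1.59) with all kidneys and -0.69 without replicate 4 (edgeR adjusted p = 0.634). Nr3c2 was also the gene with the fewest counts of the 8, 24 to 315 per kidney, and 3 small or non-coding genes overlap it, 2 of them on the other strand.

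Hsd11b2 (chr8:105518755-105523988, + strand), which keeps corticosterone from the receptor, was at 10.4, 30.9, 8.53 and 16.3 CPM in the controls. It was at 25.8, 10.9, 16.7 and 2.65 CPM for set A and at 5.32, 8.41, 11.6 and 6.16 CPM for set B. Control replicate 2 was the highest of the 12 kidneys, set A spanned nearly the whole range, and set B lay in the lower part of the control range or below it.

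The mean of Hsd11b2 was 16.5 ± 10.1 CPM (SD, n = 4) in the controls, 14.0 ± 9.75 CPM for set A and 7.86 ± 2.79 CPM for set B. It was not called, with an edgeR log2 fold change of -0.24 in set A (95% interval -1.36 to 0.89), -1.08 in set B (-2.22 to 0.07, adjusted p = 0.184) and -0.66 in both sets (-1.61 to 0.30, adjusted p = 0.343). Without control replicate 2 it was -0.59 in set B and -0.16 in both sets, and without any other kidney it stayed below these values. Hsd11b2 minus Nr3c2, the enzyme against the receptor it guards, was 1.27 ± 0.83 log2 CPM (SD, n = 4) in the controls, 1.89 ± 1.80 for set A and 0.57 ± 1.29 for set B (both sets against control, exact permutation p = 0.994).

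Other genes of the pathway were grouped in 5 lists by what the genes do, also with earlier results of these data known. They were counted in both sets against control, where 26.4% of all genes were called by edgeR. Of the proteases that cleave ENaC and their inhibitors, 6 of 7 were tested, and 1 rose, 1 fell and 4 were not called (33.3% called, median log2 fold change -0.34). Tmprss4, a membrane serine protease, had no count in any control or set A kidney and was not tested. St14, the protease matriptase, rose from a control mean of 50.5 ± 8.17 CPM (SD, n = 4) to 142 ± 34 CPM for set A and 175 ± 70.9 CPM for set B, a log2 fold change of 1.64 for both sets (edgeR adjusted p = 9.67e-06). Furin, the convertase that cleaves channel subunits on their way to the membrane, fell from 429 ± 58.6 CPM (SD, n = 4) to 292 ± 46.8 CPM and 302 ± 15.3 CPM, by 0.53 on the log2 scale (edgeR adjusted p = 0.00143).

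Of 17 genes for the retrieval of ENaC and the control of SGK1, 1 rose, 5 fell and 11 were not called (35.3% called, median -0.10). Mtor, the kinase of the complex that activates SGK1, fell from a control mean of 1410 ± 274 CPM (SD, n = 4) to 545 ± 81.8 CPM for set A and 566 ± 105 CPM for set B, a log2 fold change of -1.34 (edgeR adjusted p = 1.45e-07). Wnk1, a kinase of distal salt transport, fell from 1430 ± 114 CPM (SD, n = 4) to 804 ± 58.0 CPM and 750 ± 43.3 CPM, a log2 fold change of -0.88 (edgeR adjusted p = 1.56e-07). Usp2, a deubiquitinase that acts on ENaC, fell from 271 ± 87.9 CPM (SD, n = 4) to 70.7 ± 17.9 CPM and 76.2 ± 29.8 CPM, a log2 fold change of -1.89 (edgeR adjusted p = 6.51e-07). Beside these, the ligase Nedd4l and the kinase Sgk1 were not called, as described above.

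Of 9 corticosteroid receptor partners and enzymes, 2 rose, 4 fell and 3 were not called (66.7% called, median -0.04). Hsd11b1, which regenerates active corticosterone and so works in the direction opposite to Hsd11b2, fell from a control mean of 29.4 ± 12.1 CPM (SD, n = 4) to 8.65 ± 4.23 CPM for set A and 3.07 ± 2.60 CPM for set B, a log2 fold change of -2.5 (edgeR adjusted p = 0.000216). Hsd11b1 is also made by proximal tubule cells, whose markers fell in the same kidneys, and their part in this result was not tested. Fkbp4, an immunophilin of the receptor complex, fell from 430 ± 32.8 CPM (SD, n = 4) to 281 ± 33.2 CPM and 275 ± 39.5 CPM (-0.63, edgeR adjusted p = 0.000163). Hspa8, a chaperone with many near-identical copies in the genome and so an uncertain count, was at 5160 ± 439 CPM (SD, n = 4) in the controls and fell by 0.68 on the log2 scale (edgeR adjusted p = 0.000163).

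Of 12 corticosteroid-responsive genes other than Sgk1 and Tsc22d3, 4 rose, 4 fell and 4 were not called (66.7% called, median 0.80). The list therefore had no common direction in its calls. Edn1, which encodes endothelin, was at 0 in every control, so its fitted value is no bound, and the median was also 0.80 with Edn1 set to its bound. The metallothionein Mt2 rose from a control mean of 16.2 ± 7.57 CPM (SD, n = 4) to 399 ± 86.1 CPM for set A and 449 ± 204 CPM for set B, a log2 fold change of 4.71 (edgeR adjusted p = 1.36e-09). Its paralog Mt1 rose from 24.1 ± 6.01 CPM (SD, n = 4) to 201 ± 29.6 CPM and 224 ± 122 CPM, a log2 fold change of 3.14 (edgeR adjusted p = 5.67e-08). Metallothioneins also respond to metals and to injury. Klf9, a transcription factor that corticosteroid receptors induce, fell from 214 ± 25.8 CPM (SD, n = 4) to 117 ± 16.2 CPM and 118 ± 16.7 CPM, a log2 fold change of -0.86 (edgeR adjusted p = 2.22e-05).

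Of 9 transporters that work beside ENaC in the distal nephron, none rose, 4 fell and 5 were not called (44.4% called, median -0.75). Kcnma1, the pore of the large potassium channel that secretes potassium when flow rises, fell from a control mean of 76.3 ± 8.86 CPM (SD, n = 4) to 22.8 ± 4.73 CPM for set A and 22.9 ± 2.82 CPM for set B, a log2 fold change of -1.74 (edgeR adjusted p = 1.35e-07). Kcnj16, a basolateral potassium channel, fell from 141 ± 19.7 CPM (SD, n = 4) to 63.9 ± 10.7 CPM and 73.9 ± 12.1 CPM, a log2 fold change of -1.04 (edgeR adjusted p = 1.27e-05). Atp1b1, the beta subunit of the sodium pump, which every tubule segment uses, fell from 912 ± 75.2 CPM (SD, n = 4) to 491 ± 47.8 CPM and 506 ± 114 CPM, a log2 fold change of -0.87 (edgeR adjusted p = 8.55e-06). In the same kidneys fell the markers of the proximal tubule, 1 of 4 of the thick ascending limb and 3 of 8 of the distal convoluted and connecting tubule, and their part in these results was not tested. Slc12a1, the sodium cotransporter that marks the thick ascending limb, fell from 1510 ± 42.3 CPM (SD, n = 4) to 180 ± 16.5 CPM for set A and 256 ± 184 CPM for set B (-2.82 on the log2 scale, edgeR adjusted p = 2.01e-08). Umod, another marker of that segment, was not called, at 115 ± 3.25 CPM (SD, n = 4) in the controls, 128 ± 35.1 CPM for set A and 128 ± 58.3 CPM for set B (0.16, edgeR adjusted p = 0.674). Calb1, the calcium-binding protein of the distal convoluted and connecting tubule, fell from 629 ± 102 CPM (SD, n = 4) to 186 ± 127 CPM and 153 ± 53.9 CPM (-1.9, edgeR adjusted p = 1.24e-05), while Trpv5 of the same list rose in set B, as given above.

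**Figure D5:**
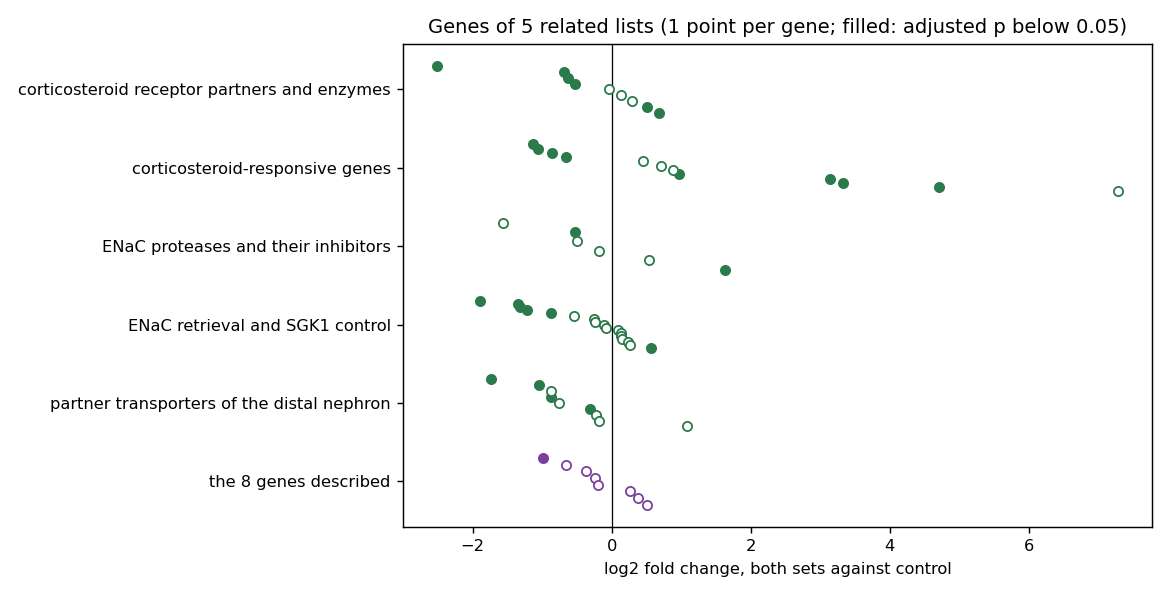
Log2 fold change of both sets against control (horizontal axis), with 1 point per tested gene, for the 5 related lists and the 8 genes. Filled points have an adjusted p below 0.05 in edgeR. In the list of partner transporters the 4 filled points lie to the left of 0, in the corticosteroid-responsive list 4 lie on each side, and the 8 genes hold 1 filled point, Tsc22d3 at -0.98. The point farthest to the right is Edn1, whose fitted value is no bound because it was at 0 in every control.

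The genes whose levels followed each of the 8 most closely over the 12 kidneys were named by the root mean square difference of centred log2 CPM, among 8513 genes whose log2 CPM averaged 1 or more. Nedd4l had the nearest neighbour, Rnf115 at 0.124, beside its own spread of 0.205 about its mean. Scnn1b was next, with Tfcp2l1, a transcription factor of the collecting duct which is among the principal cell markers, at 0.181 and Hoxd8 at 0.215, beside a spread of 0.424. For Sgk1 the nearest gene was Foxi1, the intercalated cell transcription factor, at 0.303, followed by Limk2 at 0.364, beside a spread of 0.707. For Tsc22d3 the nearest were Os9 at 0.4 and Actr8 at 0.415, beside a spread of 0.715.

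For Scnn1a the nearest genes were Clcn6 at 0.303 and Hbp1 at 0.385, beside a spread of 0.673. Those of Hsd11b2 were Cdkn1c at 0.373 and Emc10 at 0.464, beside a spread of 0.935. For Nr3c2 the nearest was Scnn1a itself, at 0.499, followed by Atp5e at 0.525, beside a spread of 0.945. Scnn1g was farthest from its nearest gene, with Mgll at 0.501 and Rassf5 at 0.504 beside a spread of 0.842. The points of such a profile share their libraries, and no test was made of it.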

How the data were processed

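Total RNA from 12 mouse kidneys was made into stranded mRNA libraries and sequenced as single reads of 100 bases. The authors checked reads with FastQC, mapped them to mm10 with STAR, counted them with HTSeq and deposited raw counts of 23420 genes without normalization. Tool versions, the annotation release and the strand setting are not given in the sources used here. All 12 columns belong to the samples, and 0 columns belong to others.

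The test was run in edgeR 4.0.16 (R 4.3.3). Low counts were removed by filterByExpr (minimum count 10, minimum total 15), libraries were scaled by TMM, and all 12 kidneys entered a single negative binomial fit with a coefficient per group. The common biological coefficient of variation was 0.762. Two-sided quasi-likelihood F-tests were adjusted by Benjamini-Hochberg over 11664 genes at 0.05. Both sets against control tests the mean of both set coefficients, and was added because the labels contradict each other. Differences within a kidney used log2 CPM with a prior count of 2. Exact permutation tests compared group means. Alternatives used DESeq2 1.42.0, limma 3.58.1 and other settings given in the closing section. Exact tests were run with SciPy 1.17.1, tables were handled with pandas 2.3.3 and NumPy 2.4.6, and plots were drawn with matplotlib 3.10.9, all under Python 3.11.15.

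The genes named were the 8 genes, in each pathway list the 3 called genes with the smallest adjusted p in both sets against control, for each of the 8 the 2 genes nearest in profile, and cell type markers beside a result. A gene that this rule names is not reported here. The 8 genes, the 5 pathway lists and the 10 marker lists were chosen with earlier results of these data known. The other marker lists covered intercalated cells (summed level 222 to 385 CPM in the controls, 162 to 322 for set A and 190 to 485 for set B), thick ascending limb (1590 to 1700, 274 to 376 and 257 to 753), myeloid cells (44.5 to 68.1, 12.2 to 30.2 and 13.2 to 35.6), lymphocytes (0.695 to 4.73, 0 and 0), endothelium (53.6 to 63.0, 35.9 to 64.4 and 38.2 to 59.9), stroma (476 to 612, 938 to 2640 and 1130 to 2390) and adrenal cortex (0, up to 1.57 and up to 1.46). In both sets against control edgeR called 26.4% of all genes. Among the markers tested it called lower 2 of 7 intercalated cell markers, 1 of 4 of the thick ascending limb and 1 of 5 myeloid. Also called lower were 1 of 1 lymphocyte and 1 of 4 endothelial markers. It called 2 of 3 stromal markers higher and tested 0 adrenal ones. The myeloid marker called was Csf1r, with 52.1 CPM in the controls, 13.5 for set A and 10.5 for set B. The other 4 myeloid markers were not called and had fitted values above 0. The edgeR procedure was tested on simulated counts for set A against control with 10979 genes, of which 200 were changed. It recovered 29 of 100 genes changed 2-fold and 55 of 100 changed 4-fold. The Scnn1a, Hsd11b2 and Nedd4l promoter windows were not analysed here.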

Additional observations from a re-analysis of the deposited data

Results flagged for a closer look

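Within each group of 4 kidneys, the gap of the highest or lowest kidney to its neighbour was compared with the range of the group. The gap exceeded Dixon's 95% critical value in 4 of the 45 groups of values tested, and chance gives about 1 in 20. Scnn1g stood at 3.35 CPM in replicate 3 of set A, below the other 3 kidneys of that set. Nr3c2 stood at 8.23 CPM in control replicate 4, above the other controls, so the distance between controls and set A rests on 3 controls close together. Tsc22d3 stood at 30.9 CPM in replicate 3 of set A, above the rest of its set, and this kidney had the most counts of the 12. Without it the log2 fold change of Tsc22d3 in set A was -1.51 in edgeR. Scnn1b minus Scnn1a stood at 1.63 log2 CPM in control replicate 1, above the other controls, and without this kidney the shift of both sets from control was 0.93 in place of 0.61 (exact permutation test, adjusted p = 0.0566).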

How the results depend on the processing

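Of the alternative values of the 8 genes' fold changes, 583 kept their direction and their side of the threshold, 14 changed sign, 8 lost the call and 3 gained it. The values of Tsc22d3 that lost the call without a single kidney stand in the report, and with all kidneys it kept the call in 6 of 7 other settings in set A and in 7 of 7 in both sets. Its value in both sets without a kidney ranged from -1.22 to -0.78. The count of the 8 genes called ranged from 0 to 1 without a kidney in set A, in set B and in both sets against control.

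The replicate numbers did not pair the kidneys, since deviations of same-numbered kidneys from their group means correlated at -0.0554 to 0.0452 over 12 pairs and those of other kidneys at -0.0619 to 0.0763 over 36. With the replicate block, 0 of the 8 genes were called in set A (Tsc22d3 -1.07, edgeR adjusted p = 0.0678), and the values of Scnn1a (-0.0427) and Nr3c2 (-0.0892) in set B changed sign. With limma-trend these values were -0.0503 and -0.247. Between the sets, 1 gene was called in edgeR, 29 by DESeq2, 6 with no filter on low counts, 0 with only the groups compared in the fit, 0 with limma-trend, and 0 to 7 without a kidney. The cause was not tested.

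Without a kidney, log2 fold changes that crossed 0 ranged from -0.26 to 0.29 for Scnn1a and from -0.69 to 0.44 for Nr3c2 in set B, from -0.68 to 0.26 for Hsd11b2 and from -0.0294 to 0.77 for Sgk1 in set A, from -0.0919 to 0.44 for Scnn1g in both sets, and from -0.11 to 0.0718 for Nedd4l between the sets. Differences within a kidney that crossed 0 were, in both sets, Hsd11b2 minus Nr3c2 (-0.34 to 0.37, and 0.40 with group medians), the Scnn1 mean minus the principal cell markers (-0.12 to 0.23, and -0.20 with group medians) and Scnn1b minus Scnn1g (-0.00551 to 0.42). Between the sets they were Scnn1b minus Scnn1a (-0.30 to 0.0306) and Tsc22d3 minus Sgk1 (-0.42 to 0.21). None of these values passed a threshold with all kidneys. The 95 counts of the pathway lists stayed within 1.5 times their main count. In the simulated counts, with 4 kidneys a group, edgeR recovered 29 of 100 genes changed 2-fold. There 200 of 10979 genes were changed, against 22.3% of all genes called in set A, so the adjusted threshold was stricter than in the data. In both sets, the edgeR 95% intervals of Nedd4l (-0.49 to 0.02), Scnn1a (-0.94 to 0.55) and Scnn1b (-0.11 to 0.88) stayed short of 2-fold. Those of the other genes reached beyond it.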
